A study of Mus musculus with 13 samples.

Results

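The 8 liver tumours of mice lacking mir-122, the most abundant microRNA of hepatocytes, were divided into 3 liver-like tumours, whose arrays resembled control liver most, and 5 divergent tumours. The classes were drawn from the measured values themselves. Pearson's r was computed between each tumour array and the control liver with the tag WT-125 over all 45101 probe sets, and a tumour with r above 0.956 was called liver-like. The liver-like tumours are 265-T (r = 0.9619), 318-T (0.9751) and 105-T (0.9639). The divergent tumours are 157-T (0.9375), T (0.948), T2 (0.9502), 69-T (0.9447) and 266-T (0.9517). The tumour nearest to the threshold on the inside was therefore 265-T, and the nearest on the outside 266-T. Values of several samples are always given in these orders, and controls in the order WT-125, WT-349, WT-163, WT-258 and WT.

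The whole series holds 13 one-colour Affymetrix mouse arrays, 1 per RNA sample, of mice on a B6/129 background. The tumours came from mir-122 knockout mice, 3 of them at 11 months (265-T, 318-T and 157-T) and 5 at 14 months (T, T2, 69-T, 105-T and 266-T). The 5 control livers came from wild-type mice, 2 at 11 months (WT-125 and WT-349) and 3 at 14 months (WT-163, WT-258 and WT). Sex was not among the sample labels used here, and its part in the sex-biased genes below was not tested. Non-tumour liver of knockout mice was not analysed here, so loss of the microRNA and tumour growth cannot be told apart in any comparison with controls, and the labels do not say that the tumours came from separate mice. Because the classes were chosen on all values of these arrays, every difference between them is a description with no test. It is the mean of the 3 liver-like tumours minus the mean of the 5 divergent tumours, on the log2 scale of the arrays.

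Hepatocytes make most plasma proteins, take up and detoxify foreign and endogenous molecules with cytochrome P450 enzymes, conjugating enzymes and membrane transporters, and make bile acids. Their enzymes are divided between cells near the central vein and cells near the portal vein. Poorly differentiated liver tumours are known to lose parts of this programme while they keep others, and to switch on genes of fetal liver or of other tissues. The liver also has its own macrophages, the Kupffer cells, and a fenestrated sinusoidal endothelium, both of which are commonly replaced by other macrophages and vessels in tumours.

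The split did not hang on the single control that the rule used. Each of the other 4 controls, the mean of all 5, the mean of the 4 that the rule left out and Spearman's correlation put the same 3 tumours nearest to liver. The controls correlated with one another at r = 0.9822 to 0.9948, so these references are much alike and their agreement is no independent support for the classes. With the mean of the 4 other controls, the third tumour in that order (265-T) had r = 0.9657 and the fourth (T2) 0.9524. Pairs of liver-like tumours correlated with r = 0.9671 to 0.9788, pairs of divergent tumours with 0.9784 to 0.9866, and pairs across the classes with 0.9513 to 0.9649. The liver-like tumours thus resembled one another less than the divergent tumours did, and each class resembled the other less than itself. Correlations of liver-like tumours with the 5 controls ran from 0.96 to 0.9751, and those of divergent tumours from 0.9265 to 0.9517.

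**Figure D1:**
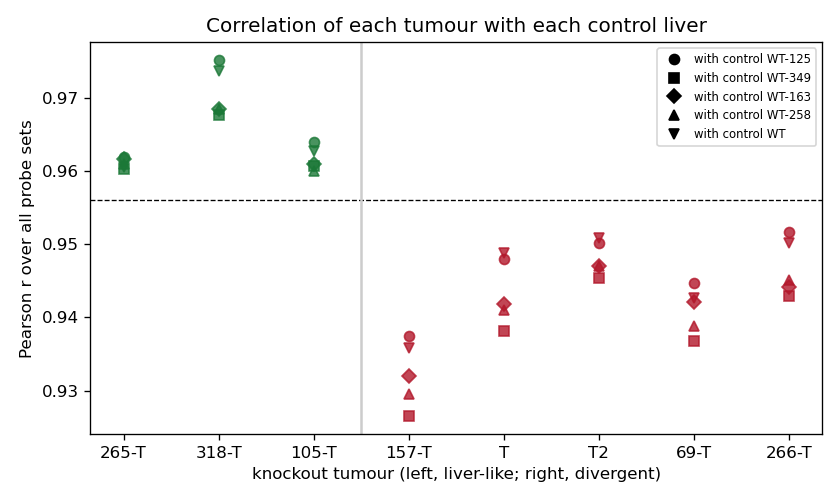
Pearson correlation over all probe sets (vertical axis) of each of the 8 knockout tumours (horizontal axis) with each of the 5 control livers (symbols), with the rule's threshold of 0.956 as a dashed line. All 15 values of the liver-like tumours (green) lie above the line and all 25 values of the divergent tumours (red) below it.

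Age was spread unevenly over the classes. Of the liver-like tumours 2 were taken at 11 months and 1 at 14 months, and of the divergent tumours 1 at 11 months and 4 at 14 months. Fisher's exact test, two-sided, gave p = 0.464 for this split, and the smallest p that 3 and 5 tumours allow is 0.0179. Between tumours of 14 and of 11 months, 1 of 18193 genes passed an adjusted p of 0.05 in the limma fit over all 13 arrays (0.0055%), while 1139 had an unadjusted p under 0.05. That gene is Tmem267, named only because it is the single one, and leaving out single arrays moved the count between 0 and 4. Array medians ranged from 5.127 to 5.218. The controls WT-125 (11 months) and WT (14 months) were nearly identical to each other (r = 0.9948) although their ages differ. They stood apart from the other 3 for genes of the cell cycle and of the immediate early response. Whether they share an animal or a batch was not given in the sources used here.

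A gene was counted between the classes when all 3 liver-like tumours lay on one side of all 5 divergent tumours and the means differed by at least 1 on the log2 scale. By this count 413 of 18193 genes were higher in liver-like tumours (2.27% of all genes) and 511 were lower (2.81%). With single tumours left out, an alternative chosen after seeing the data where it is given for a list, these shares of all genes ran from 2.27% to 3.29% higher and from 2.84% to 3.62% lower. Every count of a list between the classes stands beside these shares. The median difference over all genes was -0.01, and the median SD was 0.21 among liver-like tumours, 0.20 among divergent tumours and 0.16 among controls. Within 11 months (265-T and 318-T against 157-T) and within 14 months (105-T against the other 4) taken separately, 662 of the 924 counted genes differed by at least 1 in the same direction at both ages.

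Because the rule chose the liver-like tumours for their likeness to a control over these same values, they lie nearer to controls by construction, and the positions that follow only describe the counted genes. Of the 413 genes higher in liver-like tumours, 250 (60.5%) had a liver-like mean within 1 log2 of the control mean and a divergent mean at least 1 below it. Of the 511 genes lower in liver-like tumours, 347 (67.9%) had a liver-like mean within 1 of the control mean and a divergent mean at least 1 above it. The liver-like mean was itself at least 1 above controls while the divergent mean was near them for 47 genes, and at least 1 below controls with the divergent mean near them for 16 genes. Both classes lay at least 1 below controls for 46 of the genes higher in liver-like tumours, and both at least 1 above controls for 69 of the genes lower in them.

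**Figure D2:**
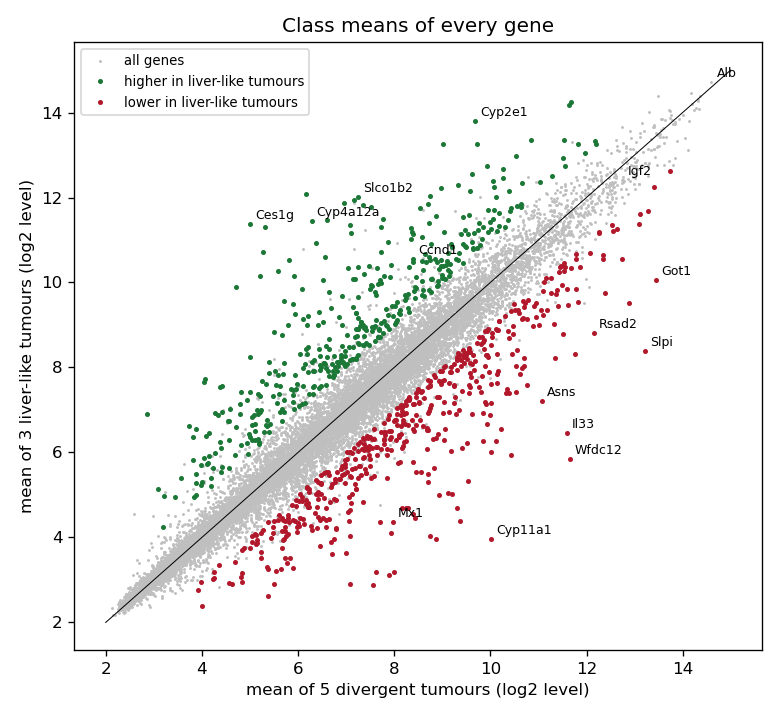
Mean log2 level of each of 18193 genes in the 3 liver-like tumours (vertical axis) and the 5 divergent tumours (horizontal axis), with the line of equal levels. Green points are the 413 genes counted as higher and red points the 511 counted as lower in liver-like tumours. Alb and Igf2 lie near the line, Ces1g far above it and Cyp11a1 far below it.

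The largest difference in favour of the liver-like tumours was that of Ces1g, a carboxylesterase of hepatocytes. Its log2 level was 11.23, 11.26 and 11.65 in the 3 liver-like tumours, 3.05, 4.51, 6.54, 3.41 and 7.5 in the 5 divergent tumours and 11.69, 10.65, 9.91, 10.29 and 11.53 in the 5 controls. The classes were far apart, with a difference of 6.38, and the liver-like tumours lay within the range of the controls. Igfbp2, a secreted protein that binds insulin-like growth factors, had 12.62, 10.31 and 10.97 in liver-like tumours, 4.0, 5.82, 5.48, 4.82 and 6.42 in divergent tumours and 11.30, 12.17, 11.46, 12.27 and 11.10 in controls, a difference of 5.99. Here 265-T was above all controls, while 318-T and 105-T lay below all of them. Hsd17b6, a steroid and retinoid dehydrogenase, had 12.75, 10.87 and 12.65 in liver-like tumours and 5.51, 7.05, 5.39, 5.29 and 7.61 in divergent tumours, a difference of 5.92. Its controls spread from 7.86 to 10.94, with WT-163 lowest, and 265-T and 105-T exceeded every one of them. The 15 largest differences also took in Sult2a8 (5.17), a liver sulfotransferase, Inmt (4.91), a methyltransferase of small amines, Dio1 (4.68), the deiodinase that activates thyroid hormone, Ces2a (4.45), another carboxylesterase, and Pigr (4.55), the receptor that carries polymeric immunoglobulins into bile. Wfdc21 (4.87) and Ildr2 (4.72) completed this group with the P450 enzymes and the transporter described next.

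Among the 45 lists, the P450 enzymes had the largest share of genes higher in liver-like tumours. Of 29 measured members, 15 were higher in liver-like tumours and 0 lower, and the median difference of the list was 2.46. Cyp2e1, the ethanol-inducible P450 of hepatocytes around the central vein, had 13.40, 14.10 and 13.89 in liver-like tumours, 6.91, 8.79, 12.45, 7.5 and 12.76 in divergent tumours and 13.98, 14.17, 14.07, 14.17 and 14.03 in controls. The divergent tumours fell into a high pair, T2 and 266-T, and a low group of 3 for this gene. Cyp4a12a, a male-predominant arachidonic acid hydroxylase, had 9.74, 12.07 and 12.50 in liver-like and 5.10, 5.02, 6.87, 5.34 and 9.09 in divergent tumours, against 12.36 to 12.82 in controls. The tumours 265-T and 318-T stood under the controls, and 266-T was the highest of the divergent tumours, 0.65 below 265-T. Cyp2j5 (difference 4.79) followed the same order. Cyp2c54 (4.95) did so only between the classes. Its 318-T value of 12.23 lay within the controls (11.96 to 12.49), while 265-T (8.62) and 105-T (9.62) lay below them. Cyp2b13, a P450 more abundant in female liver, differed in kind: it had 7.74, 10.78 and 11.94 in liver-like tumours, 5.44, 5.28, 6.67, 5.39 and 6.77 in divergent tumours and 5.12 to 5.88 in controls. All 3 liver-like tumours exceeded all controls, and so, by less, did the divergent tumours T2 and 266-T. Cyp2c55 exceeded all controls in 265-T and 105-T, with 10.66, 8.38 and 13.11 in liver-like tumours, 4.74, 5.23, 5.09, 5.11 and 6.23 in divergent tumours and 7.27 to 9.27 in controls. Outside this list, the P450 gene Cyp17a1, which makes androgens, ran the other way, and its classes overlapped through 265-T. It had 12.12, 8.22 and 9.35 in liver-like tumours and 11.61, 11.68, 12.63, 12.02 and 12.28 in divergent tumours.

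Bile acid genes leaned toward the liver-like tumours. Of 25 genes of bile acid synthesis and transport, 10 were higher in liver-like tumours, 0 lower and 15 neither, with a median difference of 0.98. Slco1b2, an uptake transporter of organic anions on the sinusoidal face of hepatocytes, had 11.40, 12.57 and 12.07 in liver-like tumours, 4.93, 7.97, 8.64, 5.49 and 9.25 in divergent tumours and 12.34, 12.62, 12.34, 12.50 and 12.21 in controls, a difference of 4.75. Slc10a1, the sodium-dependent bile acid uptake carrier, had 11.81, 11.52 and 10.75 in liver-like tumours, 5.87, 5.34, 7.97, 8.08 and 8.13 in divergent tumours and 12.24 to 12.44 in controls. Its liver-like values lay under every control. Slco1a4, a related transporter, differed by 2.76 but left only a narrow gap, since 318-T had 7.80 and 69-T 7.56. Without 318-T 1 gene of the list was lower and without 105-T 2. Cyp7b1, which serves the alternative pathway of bile acid synthesis, moved against the list with a difference of -0.83, and its classes overlapped. Of 26 conjugating enzymes 3 were higher, where 2.27% of all genes were, among them Ugt3a1 (2.27) and Gsta4 (1.34). Without 265-T 5 were higher, where 2.9% of all genes were. Gstp1 had the largest difference the other way, -0.66.

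Proteins that hepatocytes secrete were split, some being nearly equal in the classes and others far apart. Alb, which encodes albumin, averaged 14.71 ± 0.04 in liver-like tumours, 14.60 ± 0.13 in divergent tumours and 14.65 ± 0.01 in controls (SD, n = 3, 5 and 5). Ttr, the carrier of thyroxine and of retinol-binding protein, averaged 14.38 ± 0.03, 14.35 ± 0.11 and 14.39 ± 0.05 in the same groups, but such levels are close to the top of the arrays' scale, which can hide differences. Hrg, the histidine-rich glycoprotein of plasma, had 13.36, 13.33 and 13.07 in liver-like tumours and 7.65, 10.15, 9.49, 11.11 and 10.23 in divergent tumours, against 13.30, 13.22, 13.29, 13.14 and 13.25 in controls. The liver-like tumours matched the controls for this gene, and no divergent tumour came near them. Apoa1, the main protein of high-density lipoprotein, differed by 0.90 with no overlap, just short of the 1 log2 needed to be counted. Of 24 plasma protein genes 5 were higher in liver-like tumours and 1 lower, where 2.27% and 2.81% of all genes were. The lower one was Itih2 (-1.12), a chain of the inter-alpha-trypsin inhibitor.

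Complement and coagulation genes had 6 of 29 members higher and 0 lower. C8a, a chain of complement component 8, had 9.53, 12.09 and 10.18 in liver-like tumours, 5.05, 5.04, 6.74, 6.83 and 9.10 in divergent tumours and 12.78, 12.88, 12.90, 12.92 and 12.70 in controls. The 318-T tumour came closest to the controls, and 266-T approached the liver-like class. C8b, its partner chain, differed by 2.42, and Klkb1, plasma prekallikrein, by 2.83. Of 22 acute phase genes 3 were higher, Saa4 (3.57), Crp (3.13) and Orm3 (3.09), while Hamp, the iron hormone hepcidin, ran the other way (-1.18) with overlapping classes. Without 265-T 5 of the 22 were higher, and without 318-T 3 were lower. Orm3 had 7.86, 9.38 and 9.06 in liver-like tumours, 5.67, 5.64, 5.47, 5.26 and 6.34 in divergent tumours and 7.48, 7.36, 7.0, 6.67 and 7.66 in controls, so the liver-like tumours lay above and the divergent tumours below every control.

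Among 21 transcription factors of hepatocytes, 3 were higher in liver-like tumours and 0 lower, where 2.27% and 2.81% of all genes were. Without 265-T, 318-T or T 5 were higher, and without 105-T 2. Foxa1, a pioneer factor of liver and other endoderm, had 8.71, 8.48 and 7.55 in liver-like tumours, 4.77, 4.47, 4.78, 4.81 and 6.16 in divergent tumours and 8.15, 8.09, 8.87, 7.73 and 8.14 in controls. Nr1i3, the nuclear receptor CAR that drives P450 genes, had 9.14, 9.34 and 9.11, against 6.15, 7.90, 6.76, 6.76 and 6.69 in divergent tumours and 9.28 to 9.95 in controls. For both factors the liver-like mean was within 1 log2 of the control mean, and every divergent tumour was below every liver-like one. Nr0b2, the bile acid-responsive repressor SHP, differed by 1.13. Hnf4a, a master regulator of hepatocyte genes, did not separate the classes, with 11.82 to 12.07 in liver-like tumours, 11.47 to 12.07 in divergent tumours and 11.54 to 12.13 in controls. Foxa2 had the largest difference in the other direction (-0.66).

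**Figure D3:**
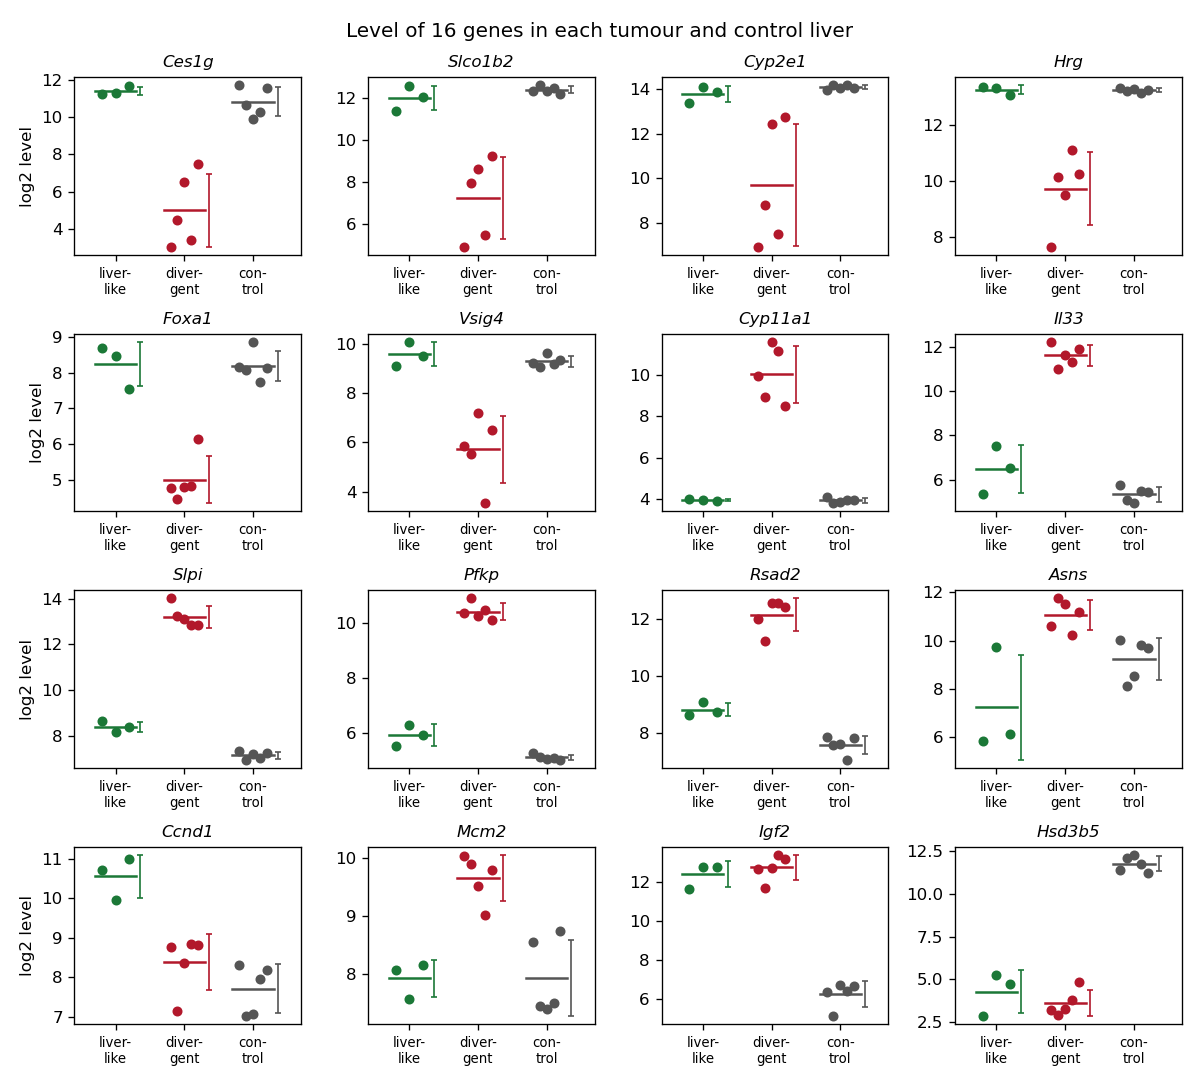
Log2 level (vertical axes) of 16 genes in the liver-like tumours (green, n = 3), the divergent tumours (red, n = 5) and the control livers (grey, n = 5). Points are single samples, horizontal lines means and bars at the side 1 SD. The first 6 genes are high in liver-like tumours and controls, the next 6 are low in liver-like tumours, Ccnd1 is highest in liver-like tumours, and Igf2 and Hsd3b5 separate all tumours from controls.

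The label liver-like was not borne out by every liver gene. Hsd3b5, a steroid-metabolising enzyme of male liver, was nearly lost in both classes: it had 2.89, 5.27 and 4.72 in liver-like tumours, 3.19, 2.94, 3.26, 3.79 and 4.85 in divergent tumours and 11.40, 12.08, 12.29, 11.77 and 11.23 in controls. Slco1a1, another male-predominant uptake transporter, had 5.16, 5.93 and 5.96 in liver-like tumours, 5.13, 4.66, 5.22, 4.54 and 5.91 in divergent tumours and 11.51, 12.13, 12.04, 11.95 and 11.43 in controls. Each of the 8 tumours lay far below each control for both genes, and the classes overlapped. In the limma fit of all tumours against all controls with the ages weighted equally, Hsd3b5 changed by -7.90 (adjusted p = 6.4e-06) and Slco1a1 by -6.48 (adjusted p = 1.11e-06). Mup10, a major urinary protein, was low in both classes but lower in divergent tumours, with 5.73, 8.16 and 8.72 in liver-like tumours, 3.78, 4.09, 4.60, 4.23 and 5.17 in divergent tumours and 10.41 to 12.40 in controls. Of 15 male-biased liver genes 13 fell in tumours against controls, where 9.81% of all genes did, and 11 fell without the controls WT-125 and WT, where 3.18% of all genes did. The median of that list relative to controls was -2.30 for liver-like tumours and -3.28 for divergent tumours. Of 17 female-biased liver genes 3 were higher in liver-like tumours and 0 lower, where 2.27% and 2.81% of all genes were. Without 265-T 5 were higher and 1 lower. Their median relative to controls was further from 0 in liver-like tumours (1.75) than in divergent tumours (0.42). Their mean level ran from 6.84 to 7.78 in liver-like tumours, 6.11 to 6.94 in divergent tumours and 5.52 to 5.75 in controls.

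Of 36 genes that mark fetal liver and liver tumours, 23 rose in tumours against controls (limma), where 10.3% of all genes did, and 0 fell. Without the controls WT-125 and WT 20 rose, where 4.34% of all genes did. Igf2, a fetal growth factor, had 11.63, 12.79 and 12.79 in liver-like tumours, 12.70, 11.72, 12.73, 13.41 and 13.21 in divergent tumours and 6.37, 5.09, 6.70, 6.41 and 6.67 in controls. All tumours exceeded all controls, the classes overlapped, and the rise against controls was 6.41 (limma, adjusted p = 1.89e-06). Lcn2, an iron-binding protein of inflammation and tumours, had 12.91 to 13.53 in liver-like tumours, 12.18 to 13.75 in divergent tumours and 5.88 to 9.98 in controls. Afp, the fetal albumin-like protein used as a tumour marker, had 10.44, 8.22 and 11.58 in liver-like tumours and 12.18, 12.26, 11.87, 11.41 and 12.18 in divergent tumours, against 4.73 to 6.11 in controls. Here 318-T was the lowest tumour, and 105-T lay within the divergent range. Between the classes 8 of the 36 were lower in liver-like tumours and 0 higher, or 1 higher without 265-T or 318-T. Among these were Akr1b8 (-3.67), an aldo-keto reductase, Cd24a (-3.12), a surface glycoprotein of progenitor and tumour cells, and Esm1 (-2.48), a proteoglycan of tumour vessels. Akr1b8 had 6.21, 6.71 and 6.71 in liver-like tumours, 11.22, 10.01, 9.92, 9.72 and 10.19 in divergent tumours and 6.26 to 7.25 in controls, and only the divergent tumours left the range around controls. Scd2, a stearoyl-CoA desaturase of fetal liver, had 9.78, 8.15 and 10.66 in liver-like tumours, 12.18, 11.81, 11.41, 11.83 and 11.90 in divergent tumours and 5.70 to 6.45 in controls, so that all tumours lay above all controls and the divergent ones highest.

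Among the published miR-122 targets, 0 of 44 measured were counted in either direction between the classes, beside 2.27% and 2.81% of all genes. Without 318-T or 69-T 2 were lower, and without 265-T, T, T2 or 266-T 1. For the whole list the median difference was -0.12. Their median relative to controls was 0.81 in liver-like tumours and 0.97 in divergent tumours. In tumours against controls 29 of the 44 rose and 1 fell (limma), where 10.3% and 9.81% of all genes did. Without the nearly identical controls WT-125 and WT 21 rose and 1 fell, where 4.34% and 3.18% of all genes did. The mean level of the list on single arrays ran from 8.37 to 8.64 in liver-like tumours, from 8.63 to 8.82 in divergent tumours and from 7.53 to 7.74 in controls. Every liver-like tumour was therefore above every control for the list as a whole.

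Of 24 pericentral genes 8 were higher in liver-like tumours and 1 lower, where 2.27% and 2.81% of all genes were. Without 318-T, T or 105-T 2 were lower. Glul, glutamine synthetase of the hepatocytes next to the central vein, had 10.72, 11.91 and 10.77 in liver-like tumours, 9.09, 9.71, 10.41, 8.35 and 10.13 in divergent tumours and 11.52 to 11.89 in controls, and 318-T alone reached the controls. Gulo, an enzyme of vitamin C synthesis, had 11.57, 11.82 and 11.07 in liver-like tumours, 6.47, 7.25, 8.87, 6.99 and 9.30 in divergent tumours and 11.30 to 11.62 in controls. Lect2 (3.13), a secreted hepatokine, and Notum (1.62), a secreted inhibitor and target of Wnt signalling, were also higher. The exception was Aldh1b1, a mitochondrial aldehyde dehydrogenase, with 10.49, 8.40 and 9.20 in liver-like tumours, 10.94, 10.99, 11.35, 11.48 and 11.14 in divergent tumours and 8.19 to 9.74 in controls. Of 12 periportal genes 2 were higher, Pigr and Cyp2f2 (1.82), and 0 lower. The list as a whole leaned the other way, with a median difference of -0.22. Only 4 of the 12 had a higher mean in liver-like tumours. Without 265-T 2 were lower, and without 157-T or T 1.

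Enzymes of nitrogen metabolism ran partly against the other liver genes. Of 24 genes of the urea cycle and amino acid breakdown, 5 were lower in liver-like tumours and 2 higher, and without 265-T 8 were lower. Got1, cytosolic aspartate aminotransferase, had 10.08, 11.34 and 8.78 in liver-like tumours, 13.47, 13.77, 13.75, 13.15 and 13.07 in divergent tumours and 11.38, 12.01, 11.16, 12.02 and 11.21 in controls. The divergent tumours lay above every control, and 265-T and 105-T below every control. Asl, argininosuccinate lyase of the urea cycle, had 11.87, 11.15 and 11.12 in liver-like tumours, 13.07, 13.33, 13.47, 13.16 and 12.45 in divergent tumours and 11.76 to 12.40 in controls. Cbs, which starts the conversion of homocysteine to cysteine, had 9.55, 10.43 and 9.17 in liver-like tumours, 11.40, 10.91, 11.87, 11.52 and 11.09 in divergent tumours and 10.59 to 11.29 in controls, with all 3 liver-like tumours below the controls. Otc, the mitochondrial urea cycle enzyme that forms citrulline, was higher in liver-like tumours, with 10.73, 12.19 and 11.57, against 9.34, 10.18, 10.03, 10.13 and 10.56 in divergent tumours and 12.50 to 12.71 in controls. Cps1, the entry enzyme of the cycle, was nearly level, with means of 13.43 in liver-like tumours, 13.66 in divergent tumours and 13.64 in controls.

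Sugar and lipid genes were mixed. Slc2a2, the glucose transporter of hepatocytes, had 12.84, 11.78 and 11.47 in liver-like tumours, 7.44, 9.56, 8.70, 8.43 and 9.56 in divergent tumours and 11.69 to 12.28 in controls. The liver-like tumours stayed near the controls while all divergent tumours were lower. G6pc, the last step of glucose release, was lower in liver-like tumours (-1.37), as was Ppargc1a (-3.30), a coactivator of mitochondrial and gluconeogenic genes. Ppargc1a had 6.70, 6.14 and 5.83 in liver-like tumours, 9.27, 9.81, 9.98, 9.56 and 8.99 in divergent tumours and 6.09 to 6.69 in controls, so that the divergent tumours were the ones away from liver. Cholesterol synthesis had 3 of 20 genes higher, Fdft1 (2.14), Tm7sf2 (2.39) and the sterol carrier Stard4 (2.42), while Dhcr7 differed the other way (-1.09) with overlap. Without 266-T 8 of these 20 were higher and without 105-T 5, and without 318-T 2 were lower. Fabp1, the liver fatty acid-binding protein, had 14.32, 13.85 and 14.34 in liver-like tumours and 10.67, 12.17, 11.74, 10.84 and 12.79 in divergent tumours, against 14.06 to 14.27 in controls. Fabp5, a form more usual in skin and other epithelia, differed by -1.75. Acot3, a peroxisomal thioesterase, had 11.58, 7.47 and 10.25 in liver-like tumours, 5.96, 6.68, 6.75, 6.54 and 7.29 in divergent tumours and 5.97 to 6.90 in controls, with 265-T and 105-T far above the rest. Of 20 genes of fatty acid oxidation 2 were higher and 1 lower in liver-like tumours, where 2.27% and 2.81% of all genes were. Without 318-T 8 were higher and 1 lower, where 3.29% and 3.62% of all genes were. Without T 4 were higher, where 2.61% of all genes were. The list of lipid droplet and lipid uptake genes had 3 of 22 higher and 3 lower, and without 318-T 9 were higher and 1 lower, beside the same shares.

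The largest difference in favour of the divergent tumours was that of Cyp11a1, which encodes the enzyme that opens steroid hormone synthesis in the adrenal gland and gonads. Its log2 level was 3.98, 3.96 and 3.92 in liver-like tumours, 9.94, 8.91, 11.60, 11.15 and 8.49 in divergent tumours and 4.08, 3.80, 3.88, 3.98 and 3.94 in controls. The liver-like tumours and controls were at one low level, while every divergent tumour was more than 4 log2 units above them. The mean of the gene's probe sets gave a smaller difference of -2.31, against -6.06 with its brightest probe set, as it did for Csn3 (-2.51), Apela (-2.66) and Iqca (-2.39). Il33, a cytokine released by damaged epithelial and endothelial cells, had 5.37, 7.52 and 6.51 in liver-like tumours, 12.22, 10.97, 11.61, 11.29 and 11.90 in divergent tumours and 5.77, 5.08, 4.93, 5.48 and 5.42 in controls. Slpi, a secreted inhibitor of leukocyte proteases, had 8.63, 8.17 and 8.38 in liver-like tumours, 14.02, 13.23, 13.10, 12.87 and 12.87 in divergent tumours and 7.33, 6.95, 7.19, 7.01 and 7.24 in controls. For Slpi the liver-like tumours were also above every control, though by far less. Pfkp, the platelet-type phosphofructokinase of glycolysis, had 5.54, 6.32 and 5.93, against 10.38, 10.90, 10.26, 10.47 and 10.10 in divergent tumours and 5.27, 5.13, 5.08, 5.10 and 5.05 in controls. The divergent tumours were close together for it, within 10.10 to 10.90.

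The 15 smallest differences held these genes and others. Csn3, the milk protein kappa-casein, had 4.16, 4.48 and 4.54 in liver-like tumours, 9.90, 9.78, 10.27, 6.87 and 10 in divergent tumours and 3.85 to 4.52 in controls, with 69-T well under the other divergent tumours. Wfdc12, of the whey acidic protein family, had 5.86, 5.81 and 5.85 in liver-like tumours and 12.72, 12.19, 11.89, 9.84 and 11.65 in divergent tumours, again with 69-T lowest. Morc1, a gene of male germ cells, had 2.85, 2.90 and 2.92 in liver-like tumours, 8.30, 6.85, 7.75, 6.70 and 8.23 in divergent tumours and 2.48 to 2.85 in controls. Pappa2, a placental protease that cleaves an IGF-binding protein, differed by -4.90 and ranged most widely among divergent tumours (6.46 to 10.45). Apela (-4.82) encodes a hormone ligand of the apelin receptor, Bmper (-4.62) a secreted modulator of bone morphogenetic proteins, and Procr (-4.21) the endothelial receptor for protein C. Stk33 (-4.77), a kinase, Pcdh20 (-4.45), a protocadherin, Cox7a1 (-4.19), the muscle form of a cytochrome oxidase subunit, and Iqca (-4.71) filled the list.

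**Figure D4:**
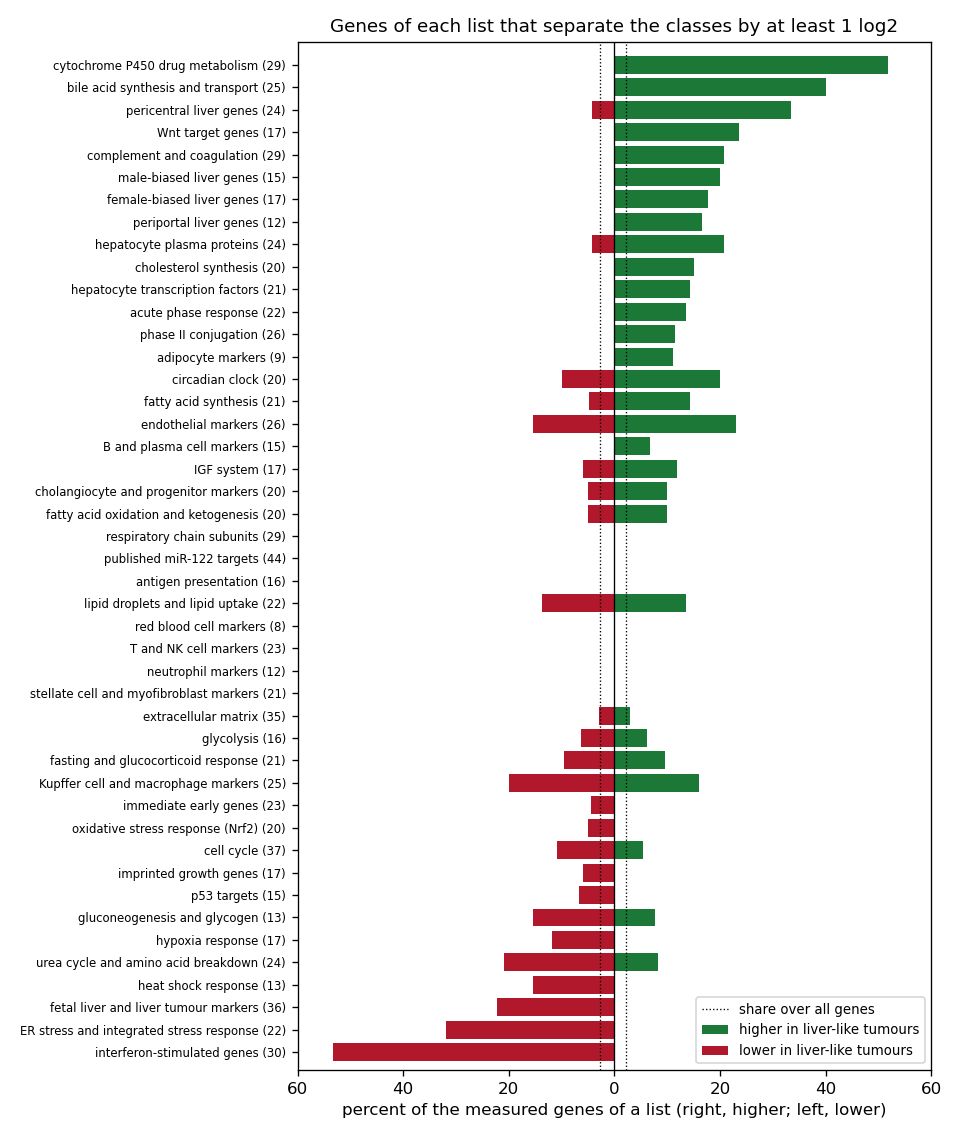
Percent of the measured genes of each of 45 lists (number of genes in brackets) that were higher (green, right) or lower (red, left) in liver-like tumours without overlap and by at least 1 log2. The dotted lines mark the shares over all genes, 2.27% and 2.81%. P450 enzymes reach furthest to the right and interferon-stimulated genes furthest to the left.

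Interferon-stimulated genes were the list that most often separated divergent tumours from liver-like ones. Interferons act through STAT and IRF factors on promoters that carry interferon-stimulated response elements. Of 30 measured members 16 were lower in liver-like tumours and 0 higher, with a median difference of -1.33. Relative to controls the median of the list was 0.52 in liver-like tumours and 2.03 in divergent tumours. The promoters of 3 members with large differences are given to show the element, and were chosen among those that hold it. They are RefSeq promoters of build GRCm38.p6, from 250 bases before the gene's start to 50 bases after it, with matches to GAAANNGAA on either strand in capitals. Their positions are chr12:26456403-26456702 on the minus strand for Rsad2, chr19:34640639-34640938 on the plus strand for Ifit1 and chr19:34583279-34583578 on the plus strand for Ifit3.
Rsad2: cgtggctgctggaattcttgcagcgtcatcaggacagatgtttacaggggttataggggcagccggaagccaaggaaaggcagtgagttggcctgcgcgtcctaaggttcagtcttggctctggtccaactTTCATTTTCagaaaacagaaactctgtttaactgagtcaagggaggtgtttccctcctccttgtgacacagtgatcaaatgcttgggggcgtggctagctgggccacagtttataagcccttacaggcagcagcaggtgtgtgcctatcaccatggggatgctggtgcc
Ifit1: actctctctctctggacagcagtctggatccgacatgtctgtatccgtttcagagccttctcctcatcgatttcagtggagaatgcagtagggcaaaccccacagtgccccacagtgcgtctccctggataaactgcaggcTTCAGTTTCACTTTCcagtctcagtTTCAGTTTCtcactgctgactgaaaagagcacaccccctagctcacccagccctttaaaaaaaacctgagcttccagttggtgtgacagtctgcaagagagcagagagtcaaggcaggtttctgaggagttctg
Ifit3: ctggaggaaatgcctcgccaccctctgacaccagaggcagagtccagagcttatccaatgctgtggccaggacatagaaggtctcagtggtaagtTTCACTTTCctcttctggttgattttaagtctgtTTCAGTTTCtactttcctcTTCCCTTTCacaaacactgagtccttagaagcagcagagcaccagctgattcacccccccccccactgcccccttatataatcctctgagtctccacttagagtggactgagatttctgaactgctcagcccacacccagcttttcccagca

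Rsad2 encodes viperin, an enzyme that blocks virus replication, and Ifit1 and Ifit3 encode proteins that bind foreign RNA or one another. Their promoters held 1, 3 and 3 matches, all reading along the strand opposite to the gene, and 2 matches in the Ifit1 promoter overlapped. Of 21 list genes with a promoter there, 14 had a match, against 2638 of all 27025 genes of the promoter table (9.76%). Of the 10 with a promoter among those lower in liver-like tumours, 6 had a match and 4 had none. Of single windows, 14 of the list's 25 held a match, against 8.56% of all 32851. A match is only a string of letters and was not tied to binding by these data.

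Rsad2 had 8.61, 9.07 and 8.74 in liver-like tumours, 12, 11.21, 12.56, 12.57 and 12.41 in divergent tumours and 7.83, 7.57, 7.61, 7.04 and 7.80 in controls. The liver-like tumours stood above every control and below every divergent tumour. Mx1, a dynamin-like antiviral protein, had 3.99, 4.63 and 4.48 in liver-like tumours, 8.05, 7.26, 7.42, 8.58 and 8.57 in divergent tumours and 4.09, 3.62, 3.70, 3.81 and 3.75 in controls, so 265-T was no higher than the highest control. Oasl1, a regulator in the oligoadenylate synthetase family, had 7.05, 8.37 and 7.35 in liver-like tumours, 10.43, 10.69, 11.05, 11.07 and 10.62 in divergent tumours and 6.88 to 7.59 in controls. Ifit1 differed by -2.91 and Ifit3 by -2.77, and both were picked for their promoters after their values were seen. Not every gene followed. Iigp1, an interferon-inducible GTPase, had the largest opposite difference (0.63), and Xaf1 was lowest of all tumours in 266-T, a divergent tumour, at 5.98. No gene of 16 in antigen presentation was counted in either direction.

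The integrated stress response, in which ATF4 raises amino acid synthesis and stress genes, gave the second list of this kind. Of 22 genes of endoplasmic reticulum stress and the integrated stress response, 7 were lower in liver-like tumours and 0 higher, with a median difference of -0.54. ATF4 and its partners bind elements such as TGATGNAA. Of the 7 lower genes 3 had a match in the promoter and 4 had none. The promoters of these 3 are shown, with matches on either strand in capitals. They lie at chr6:7693160-7693459 on the minus strand for Asns, chr7:126625421-126625720 on the minus strand for Nupr1 and chr2:152344011-152344310 on the minus strand for Trib3, by the same table and build.
Asns: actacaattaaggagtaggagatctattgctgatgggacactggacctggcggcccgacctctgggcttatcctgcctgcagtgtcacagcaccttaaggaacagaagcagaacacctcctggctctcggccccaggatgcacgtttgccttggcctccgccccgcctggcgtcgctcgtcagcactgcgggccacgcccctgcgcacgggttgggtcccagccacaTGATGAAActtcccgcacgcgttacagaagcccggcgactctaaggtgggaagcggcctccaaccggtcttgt
Nupr1: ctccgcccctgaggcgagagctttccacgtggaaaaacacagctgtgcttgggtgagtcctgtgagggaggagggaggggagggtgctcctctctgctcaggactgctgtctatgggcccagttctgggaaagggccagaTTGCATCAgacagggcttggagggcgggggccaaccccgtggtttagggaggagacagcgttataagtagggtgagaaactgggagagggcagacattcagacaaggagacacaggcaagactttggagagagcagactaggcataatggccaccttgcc
Trib3: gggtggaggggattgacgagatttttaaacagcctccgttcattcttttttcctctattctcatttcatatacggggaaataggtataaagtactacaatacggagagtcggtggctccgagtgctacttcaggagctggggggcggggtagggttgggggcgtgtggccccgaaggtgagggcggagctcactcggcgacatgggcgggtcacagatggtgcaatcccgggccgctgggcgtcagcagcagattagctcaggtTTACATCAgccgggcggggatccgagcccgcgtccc

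Each of these promoters held 1 match, along the gene's strand in Asns and along the other in Nupr1 and Trib3. Of 20 list genes with a promoter there, 5 had a match, against 4.51% of all genes of the promoter table. Asns, asparagine synthetase, had 5.83, 9.73 and 6.10 in liver-like tumours, 10.61, 11.76, 11.52, 10.24 and 11.20 in divergent tumours and 10.01, 8.10, 8.53, 9.83 and 9.70 in controls. The liver-like class was split for it, as 318-T lay among the controls and 265-T and 105-T below all of them, and the divergent tumours were above all of them. Nupr1, a stress-induced nuclear protein, had 5.92, 6.67 and 5.72 in liver-like tumours, 9.31, 10.13, 8.98, 8.85 and 9.79 in divergent tumours and 5.0 to 6.41 in controls. Ddit3, the stress factor CHOP, had 7.64, 8.24 and 7.04 in liver-like tumours, 10.24, 10.13, 9.49, 9.84 and 11.02 in divergent tumours and 6.75 to 8.10 in controls. Trib3, a pseudokinase of the same response, differed by -1.81 and was also picked for its promoter, and Slc7a11, the cystine carrier, by -3.06. Slc7a11 was at control level in liver-like tumours (3.90 to 4.13, against 4.08 to 4.23 in controls), and had 7.04, 8.28, 6.25, 6.42 and 7.47 in divergent tumours. The chaperone gene Dnajb9, a target of the XBP1 branch, differed the other way by 0.46. Heat shock genes had 2 of 13 lower in liver-like tumours, Hspb1 (-2.48) and Hsph1 (-1.51), where 2.81% of all genes were.

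**Figure D5:**
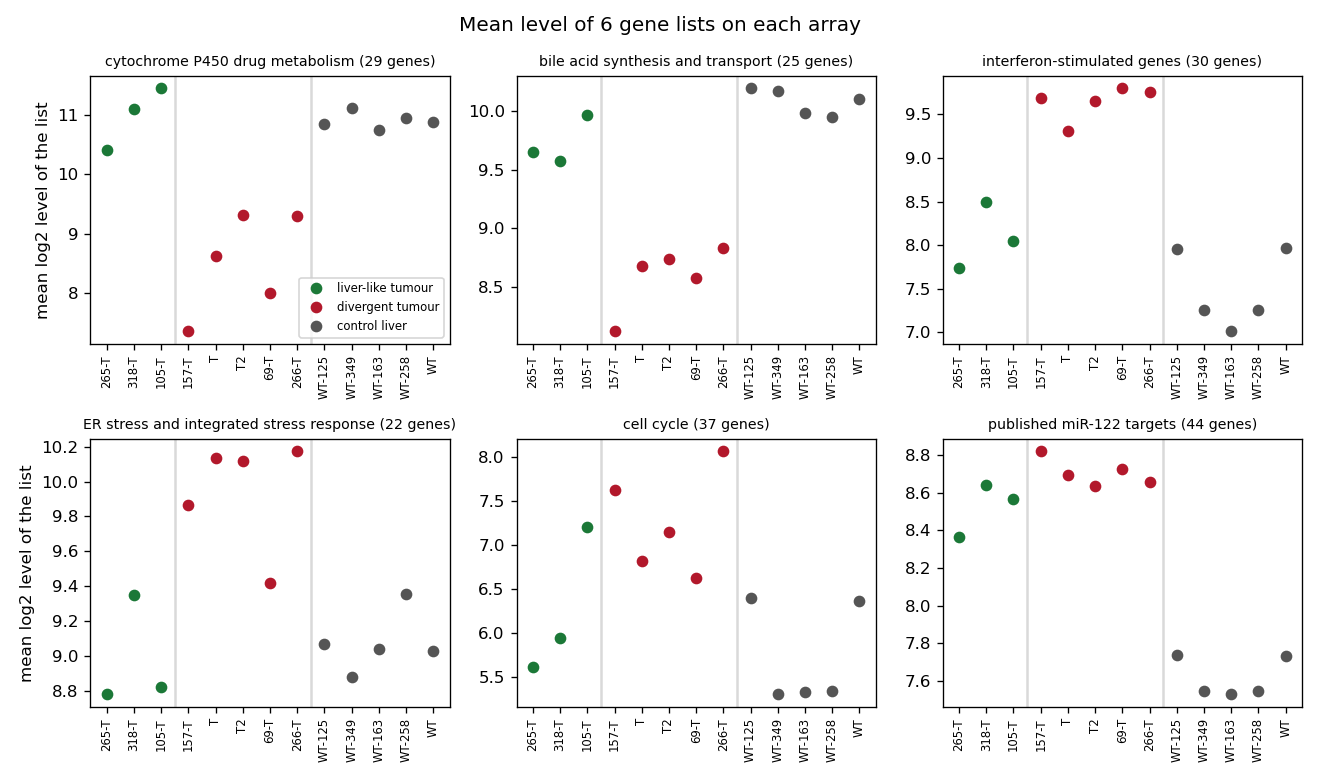
Mean log2 level (vertical axes) of 6 gene lists on each of the 13 arrays, with liver-like tumours in green, divergent tumours in red and controls in grey. P450 enzymes and bile acid genes keep the classes apart with liver-like tumours near controls, interferon-stimulated genes keep them apart with divergent tumours highest, and miR-122 targets separate tumours from controls instead.

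Cell cycle genes divided the tumours only in part. Of 37 members 4 were lower in liver-like tumours and 2 higher, where 2.81% and 2.27% of all genes were. The median difference was -1.23. The 4 were Mcm6 (-2.10), Mcm2 (-1.72) and Mcm7 (-1.08), subunits of the helicase that opens replication origins, and Rrm1 (-1.84), of the enzyme that makes deoxynucleotides. Mcm7 is outside the naming rule and is given only to complete these 4. Mcm2 had 8.07, 7.57 and 8.16 in liver-like tumours, 10.03, 9.90, 9.52, 9.02 and 9.80 in divergent tumours and 8.56, 7.46, 7.41, 7.5 and 8.74 in controls, and the controls WT-125 and WT exceeded all liver-like tumours. Mitotic genes overlapped between the classes because of 105-T. Mki67, the proliferation antigen, had 4.61, 6.0 and 7.88 in liver-like tumours, 8.5, 7.13, 8.09, 6.74 and 9.05 in divergent tumours and 5.56, 4.69, 4.60, 4.35 and 5.73 in controls, and Top2a, a topoisomerase of dividing cells, had 4.82, 5.92 and 7.27, against 8.43, 6.08, 7.13, 6.87 and 8.68 in divergent tumours and 6.05, 3.90, 4.37, 3.86 and 5.68 in controls. In both genes 105-T sat inside the divergent range and 265-T at the bottom of all tumours. Without 105-T 27 of the 37 genes were lower in liver-like tumours and 2 higher, where 3.53% and 2.51% of all genes were. Without 265-T 3 were lower and 1 higher. Ccnd1, cyclin D1 of the G1 phase, ran the other way, with 10.72, 9.96 and 11.01 in liver-like tumours, 8.77, 7.15, 8.36, 8.84 and 8.83 in divergent tumours and 8.32, 7.02, 7.07, 7.97 and 8.19 in controls. Every liver-like tumour was above every divergent tumour and every control, even 265-T, where mitotic genes were lowest. E2f8, an atypical E2F repressor, was the second gene higher in liver-like tumours (1.25).

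Of 26 endothelial genes 6 were higher in liver-like tumours, 4 lower and 16 neither, where 2.27% of all genes were higher and 2.81% lower. The higher ones included Clec4g (2.69), Stab2 (1.60) and Oit3 (1.57), all of them genes of the sinusoidal lining. Clec4g, a C-type lectin, had 8.93, 10.20 and 9.04 in liver-like tumours, 5.67, 7.53, 8.52, 5.5 and 6.25 in divergent tumours and 9.73, 9.91, 9.75, 10.08 and 9.62 in controls. Among divergent tumours T2 kept most of it, and 157-T, 69-T and 266-T least. Stab2, a scavenger receptor for hyaluronan, had 8.22, 8.76 and 8.54 in liver-like tumours, 6.58, 7.25, 7.68, 6.37 and 6.63 in divergent tumours and 8.54 to 8.89 in controls. The lower ones included Esm1, Apln (-1.60) and Emcn (-1.54). Esm1 had 7.49, 5.14 and 6.67 in liver-like tumours, 9.41, 10.05, 7.74, 8.87 and 8.46 in divergent tumours and 3.10, 3.72, 3.27, 3.83 and 3.17 in controls, so it was raised in all tumours, and more so in divergent ones. General endothelial markers overlapped, with differences of -0.68 for Pecam1, -0.49 for Cdh5 and 0.14 for Kdr. In bulk tissue fewer cells of a type and less RNA per cell cannot be told apart.

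Of 25 markers of Kupffer cells and macrophages 4 were higher in liver-like tumours, 5 lower and 16 neither. Over all genes 2.27% were higher and 2.81% lower. Without 265-T 8 were higher and 4 lower. Vsig4, a complement receptor of Kupffer cells, had 9.11, 10.07 and 9.51 in liver-like tumours, 5.83, 5.53, 7.18, 3.53 and 6.48 in divergent tumours and 9.21, 9.05, 9.64, 9.17 and 9.34 in controls. Clec4f, a lectin found almost only on Kupffer cells, had 8.74, 9.53 and 9.18 in liver-like tumours, 5.65, 5.54, 7.27, 5.19 and 6.88 in divergent tumours and 9.49, 9.53, 9.73, 9.54 and 9.52 in controls. Liver-like tumours were near controls for both, and all divergent tumours were lower, 69-T lowest. Cd5l, a secreted protein of tissue macrophages, differed by 2.75. Lgals3, galectin-3, had 8.18, 8.20 and 8.85 in liver-like tumours, 10.87, 10.83, 9.99, 10.87 and 10.27 in divergent tumours and 6.38 to 7.08 in controls, and Cd9 (-2.63) and Itgax (-1.60) took the same side. Lgals3 and Cd9 are also made by epithelial and tumour cells. Markers shared by most macrophages overlapped, as Adgre1 had 8.20, 9.86 and 9.64 in liver-like and 9.21, 8.51, 8.27, 8.67 and 7.94 in divergent tumours, and Lyz2 9.96 to 11.65 in liver-like and 10.43 to 11.48 in divergent tumours.

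Short lists of cell type markers were read as mean log2 levels per array. Hepatocyte markers (8 genes, 3 higher in liver-like tumours) ranged from 13.39 to 13.55 in liver-like tumours, from 11.95 to 12.88 in divergent tumours and from 13.53 to 13.64 in controls. Macrophage markers (6 genes, 3 higher) ranged from 9.54 to 10.68, from 7.74 to 8.87 and from 9.41 to 9.74 in the same groups. Endothelial markers (6 genes, 2 higher) ranged from 7.87 to 8.35, 7.08 to 7.82 and 7.90 to 8.085. The classes did not overlap for these 3 short lists, and the liver-like tumours were higher. The genes counted were Clec4f, Cd5l and Vsig4 for macrophages and Stab2 and Clec4g for endothelium. On the longer lists above the classes overlapped. The mean level of the 26 endothelial genes ran from 6.999 to 7.181 in liver-like tumours and from 6.536 to 7.22 in divergent tumours. That of the 25 Kupffer cell and macrophage markers ran from 8.118 to 9.023 and from 8.087 to 8.613. Stellate cell and fibroblast markers (7 genes, 0 counted) ranged from 7.73 to 8.86, 7.77 to 9.40 and 7.26 to 8.05, and neutrophil markers (3 genes, 0 counted) from 6.94 to 7.64, 6.55 to 8.72 and 4.89 to 6.39. The classes overlapped for both, and all tumours were above all controls for the neutrophil markers. T and NK cell markers (5 genes, 0 counted) stayed between 4.99 and 5.62, 4.99 and 5.81, and 4.91 and 5.09. Those of B and plasma cells (4 of 5 measured, with Ms4a1 higher) ranged from 5.71 to 7.77, 5.66 to 6.63 and 5.57 to 6.68, and those of cholangiocytes (4 of 5 measured, 0 counted) from 5.07 to 6.37, 4.92 to 5.39 and 5.03 to 5.59. Red blood cell markers (2 of 3 measured, 0 counted) ranged from 5.79 to 6.60, 5.19 to 7.26 and 6.48 to 6.92, those of adipocytes (2 of 3 measured, 0 counted) from 4.275 to 4.41, 4.196 to 4.25 and 4.39 to 4.99, and those of proliferation (3 genes, 0 counted) from 5.48 to 8.06, 7.35 to 9.57 and 4.85 to 6.56. Krt7, Ncr1, Hba-a1 and Adipoq were under the mean array median of 5.167 on every array. The part of non-tumour liver, Kupffer cells or sinusoids included in each tumour sample in the differences above was not tested.

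Of 20 clock genes 4 were higher in liver-like tumours, 2 lower and 14 neither, with a median difference of 0.15. Over all genes 2.27% were higher and 2.81% lower. Dbp, an output factor of the clock, had 9.31, 9.41 and 8.89 in liver-like tumours, 5.57, 6.03, 5.44, 5.53 and 8.47 in divergent tumours and 10.84, 8.98, 5.66, 10.75 and 11.16 in controls. Arntl, the core activator BMAL1, had 6.71, 5.89 and 6.73 in liver-like tumours, 8.40, 8.30, 8.52, 8.40 and 7.06 in divergent tumours and 5.56, 7.39, 8.71, 5.55 and 5.37 in controls. On these arrays a high Dbp went with a low Arntl. The difference of Arntl was -1.69, and -0.76 with the mean of its probe sets. The divergent tumour 266-T stood nearest to the liver-like tumours, and the control WT-163 had the low Dbp and high Arntl of the divergent tumours. Hlf (1.95) and Nr1d2 (1.40) followed Dbp, and Nfil3 (-1.67) followed Arntl. Sampling hours were not given in the sources used here.

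Lists with few or no counted genes are given beside the shares of all genes, 2.27% and 2.81%, at which short lists would also hold few. None of 29 respiratory chain subunits, 21 stellate cell markers, 23 T and NK cell markers, 12 neutrophil markers and 8 red blood cell markers was counted in either direction. Stellate cell markers had 2 higher without 265-T, 1 higher without T2 and 1 lower without T, and T and NK cell markers 1 lower without 265-T or 318-T. Of 35 extracellular matrix genes 1 was higher, Col18a1 (1.11), which liver makes as collagen XVIII, and 1 lower, the collagenase Mmp13 (-2.34). Without 265-T 3 were higher, without 318-T 4 were lower, and without T, T2, 105-T or 266-T 2 were lower. Col1a1, the main fibrillar collagen, had 6.59, 8.26 and 9.11 in liver-like tumours, 10.99, 6.72, 7.40, 10.42 and 8.85 in divergent tumours and 5.94, 4.92, 4.96, 5.16 and 6.07 in controls, which overlapped widely between the classes. Of 15 p53 targets 1 was lower, Phlda3 (-1.49), and of 17 hypoxia genes 2, P4ha2 (-1.85) and Slc2a1 (-1.32). Without 318-T 4 p53 targets were lower, and 1 hypoxia gene was higher and 3 lower. Without 265-T 2 p53 targets were lower, and without T 1 hypoxia gene was higher.

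Single tumours departed from their own class, the liver-like ones most. Counting genes at least 1 log2 above all 7 other tumours, 318-T had 153, 265-T 102 and 105-T 69, against 58 in 157-T, 51 in 69-T, 31 in T, 30 in 266-T and 19 in T2. Genes at least 1 below all others numbered 64 in 318-T, 61 in 265-T and 24 in 105-T, against 17, 14, 8, 4 and 6 in the same order of divergent tumours. A liver-like tumour is set against 2 others of its class and a divergent tumour against 4, so these counts are not on equal terms.

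Genes that set 318-T apart from all other tumours by the widest gaps included G0s2, Cbr3, Serpina4-ps1 and Egr1. G0s2, an inhibitor of triglyceride breakdown, had 5.49 there, against 11.26 in 265-T and 9.85 in 105-T. Cbr3, a carbonyl reductase, had 10.36, 7.19 and 11.07 in liver-like tumours, 11.47, 11.15, 10.37, 11.74 and 12.02 in divergent tumours and 5.44 to 7.17 in controls, so that 318-T was the tumour nearest to the controls. Serpina4-ps1, a serpin pseudogene transcript, had 4.61, 10.16 and 5.98 in liver-like tumours, 4.10, 4.17, 4.34, 4.37 and 4.41 in divergent tumours and 9.13 to 10.45 in controls, and only 318-T among tumours was within the range of controls. Egr1, an immediate early factor, had 12.62 in 318-T, and among controls was as high only in WT-125 (13.23) and WT (13.11). In 2 genes outside that group 318-T also differed from the other liver-like tumours. Cyp4a14, a fatty acid hydroxylase under PPAR-alpha, had 12.01, 8.08 and 12.28 in liver-like tumours, 4.40, 6.88, 9.10, 6.45 and 9.0 in divergent tumours and 6.86 to 8.62 in controls, high in 265-T and 105-T and not in 318-T. Pdk4, which restrains glucose oxidation, had 10.40, 6.28 and 8.97 in liver-like and 5.06, 6.82, 7.24, 6.58 and 6.40 in divergent tumours, again lowest in 318-T among the liver-like ones.

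The 265-T tumour had 10.39 for Sult2a2, a sulfotransferase of female liver, while the other 7 tumours ranged up to 5.25. Serpinf1, the antiangiogenic factor PEDF, was lowest there at 7.76, against 12 in 105-T and 12.51 to 12.79 in controls, and so was the immunoglobulin joining chain Jchain (5.45). The 105-T tumour had 10.77 for Scd3, a stearoyl-CoA desaturase, against 6.19 in 265-T, and the lowest Igfbp1, 9.83, against 13.54 in 318-T. Among divergent tumours 157-T had the intestinal cadherin Cdh17 at 8.85 and the prostaglandin synthase Ptgs2 at 6.91, where no other tumour passed 5.47 and 3.63. It also had Cyp2b9 at 3.14, where the other tumours had 7.33 or more. Controls ranged from 3.55 to 7.51 for this gene, with WT-349 highest. The 157-T tumour thus lay just below the lowest control, and all other tumours but T exceeded every control. The 69-T tumour had the platelet gene Ppbp at 9.46 and the red cell anion exchanger Slc4a1 at 8.39, each at least 2 log2 above all others, beside its low Vsig4. The T tumour had the lowest Meg3, a maternally expressed noncoding RNA, at 6.55, and T2 the lowest Apoa4, an apolipoprotein, at 9.57. In 266-T the mitotic kinase Ttk was highest at 8.01. This tumour, the divergent one nearest to the threshold, was the highest of its class for Ces1g, Igfbp2, Cyp4a12a, C8a, Foxa1 and Dbp, but not for Hrg, Vsig4 or Clec4g.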

How the data were processed

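Total RNA of 8 tumours and 5 control livers was prepared with Super RNApure from frozen tissue and 6 ug of it was labelled with biotin for one-colour Affymetrix arrays, per the labels' protocols. The deposited values are log2 levels that the authors obtained by RMA (robust multi-array analysis) in Partek Genomics Suite, per the submitters' processing notes. Version, settings, scan dates and whether 1 run held all arrays were not given in the sources used here. How precise the values are depends on the number of arrays.

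The table has 45101 probe sets, 0 values missing. There were 64 array controls. In the platform annotation 34945 probe sets name 1 gene, 932 several and 9160 none, and 34741 symbols were updated through gene identifiers. The brightest probe set by mean over all arrays stood for each of 18193 genes. Promoters came from RefSeq, build GRCm38.p6. No build is named for the array values.

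Class differences were described without a test. Tumours against controls and 14 against 11 months were tested in 1 fit of all 13 arrays with a mean per group and age (limma 3.58.1, R 4.3.3, lmFit and eBayes), adjusted by Benjamini-Hochberg over all genes at 0.05. The code was tested on simulated data. As the labels do not name the mice, p-values measure the spread between these samples, which may be partly technical. Python 3.11.15, pandas 2.3.3, numpy 2.4.6, scipy 1.17.1 and matplotlib 3.10.9 were used.

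The classes and the 45 gene lists were chosen with earlier results of these data known. Genes were named by a rule that took the 15 largest and 15 smallest class differences without overlap, up to 3 genes in each direction and the largest opposite difference of each list, cell type markers, up to 5 genes in each direction that set 1 tumour apart, and Igf2, Afp, Lcn2, Hsd3b5, Slco1a1, Dbp and Arntl. It gave 275 genes, from which examples are drawn, and any other gene is said to be picked later. Alternatives were other measures of likeness, every probe set alone or averaged per gene, other normalisations, a level filter, other thresholds, each age alone, T and T2 averaged, and each array left out. Leaving out WT-125 and WT together, leaving out T, T2 and WT, and counting lists without single tumours were chosen after seeing the data.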

Additional observations from a re-analysis of the deposited data

Results flagged for a closer look

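Among 168 genes with printed values, the 5 divergent tumours and the 5 controls were each searched for a sample whose gap to its nearest neighbour passed Dixon's critical value. In 336 such groups there were 33 such samples. Chance gives about 1 in 20 groups for genes not chosen by their values, but many of these genes were named because 1 tumour stands apart, so the number is not read against that share.

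In divergent tumours 266-T stood out most. It was highest for Dbp (8.47), Nr1d2 (10.23), Foxa1 (6.16), Ildr2 (7.12), Fdft1 (9.91) and the mitotic kinase Ttk (8.01), and lowest for Arntl (7.06), Xaf1 (5.98) and Cox7a1 (7.84). Among these, 157-T was highest for Cdh17 (8.85) and Ptgs2 (6.91), and 69-T was highest for Ppbp (9.46) and Slc4a1 (8.39) and lowest for Csn3 (6.87). The T tumour was highest for Slc2a1 (10.60), Scd3 (6.97) and Rdh10 (8.75) and lowest for Ccnd1 (7.15). The T2 tumour was highest for Stk33 (9.03) and lowest for Apela (6.80).

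In controls WT-163 was lowest for Nr1d2 (8.27), Igfbp1 (9.60), Slco1a4 (8.48) and Apoa4 (11.51) and highest for Clec4f (9.73). WT-349 was lowest for Igf2 (5.09), Ildr2 (8.03) and P4ha2 (5.78) and highest for Nupr1 (6.41) and Stk33 (3.66). WT-258 was highest for Oasl1 (7.59) and WT-125 for Adipoq (4.19) and Rdh10 (9.15).

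For 8 printed genes the classes lay on opposite sides of the controls, and 6 of these are named under the other observations for that reason. Every liver-like tumour was above and every divergent tumour below every control for Ildr2 (class difference 4.72), Orm3 (3.09), Abcb4 (2.7) and Rdh10 (1.48). The order was the reverse for Mrps23 (-0.93), Hgd (-0.61), Slc25a5 (-0.56) and Mrpl21 (-0.48), all 4 differing by less than 1 log2. These differences between the classes were not tested, because the classes were chosen on these values.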

How the results depend on the processing

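All 11 other ways of measuring likeness to liver gave the same 3 nearest tumours, so p for age stayed at 0.464 by Fisher's exact test. The 413 genes higher and 511 lower in liver-like tumours became 715 and 892 over all probe sets, 139 and 137 with at least 2 log2, 799 and 1036 at 11 months alone, and 736 higher at 14 months alone. Fewer tumours make it easier not to overlap. With single tumours left out the counts ran from 413 to 598 higher and from 516 to 658 lower. All other settings stayed within 1.5 times. Of 3575 combinations of a named gene and a setting, 3555 moved by less than 1 SD, 20 by more and 0 reversed. All 20 came from averaging the probe sets of a gene, under which 8 of 142 counted genes fell under 1 log2.

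In tumours against controls 3657 genes passed, and 1814 to 4359 with single arrays left out. The lowest counts came without WT-349 (1814) and without WT-125 (1963). Without WT-125 and WT together 1368 passed, and 1759 without T, T2 and WT, whose titles hold no number. Fewer controls enter these fits. Of 81 named genes past the threshold 24 passed in all 21 settings. For 14 against 11 months the 1 gene became 2 with T and T2 averaged, 0 without WT-125 and WT together and 0 to 4 with single arrays left out. No paired analysis was possible because the labels give no replicate numbers that groups share.

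The limits are few arrays, bulk tissue, classes drawn from the values tested, levels near the top of the scale for the most abundant transcripts, and no measure of the tumour share of each sample.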

Other observations

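Over all genes, 17 had every liver-like tumour above and every divergent tumour below every control, and 11 of these also passed the count of no overlap and at least 1 log2. The reverse order, with every liver-like tumour below and every divergent tumour above every control, held for 37 genes, 14 of them counted. The following were picked from these after their values were seen. Abcb4, the phospholipid flippase of the bile canaliculus, had 11.72, 10.97 and 12.02 in liver-like tumours, 8.30, 9.59, 9.09, 8.57 and 8.83 in divergent tumours and 10.75, 10.91, 10.65, 10.60 and 10.59 in controls. Rdh10, a retinol dehydrogenase, had 9.58, 9.48 and 10.04 in liver-like tumours, 8.09, 8.75, 8.01, 8.08 and 8.16 in divergent tumours and 9.15, 8.99, 8.99, 8.97 and 8.95 in controls. Hgd, an enzyme of tyrosine breakdown, ran the other way with 12.28, 12.07 and 12.27 in liver-like tumours, 12.64, 12.85, 13.04, 12.80 and 12.76 in divergent tumours and 12.30, 12.57, 12.41, 12.55 and 12.29 in controls. Slc25a5, a mitochondrial carrier that exchanges ADP and ATP, had 12.71, 12.72 and 12.77 in liver-like tumours, 13.53, 13.25, 13.24, 13.33 and 13.09 in divergent tumours and 12.94, 12.89, 12.85, 12.81 and 12.81 in controls. The mitochondrial ribosome genes Mrps23 and Mrpl21 shared this order, with differences of -0.93 and -0.48 between the classes.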
